A study of Mus musculus with 8 samples.

Results

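Ppp2r3d is 1 of 112 genes that the array names through RefSeq, and it was followed with 3 probes, those named for a transcript of this gene, out of 59709 probes beside the controls. Of these probes, 2 are named for the coding transcripts NM_001163415 and NM_011154, and 1 for the noncoding transcript NR_028110. The RefSeq record of the gene lists 4 transcripts, so 3 of them have a probe. Each probe is a single spot. The gene was chosen by its lower levels in adult than in newborn muscle, already known on all 3 probes, so the difference between the ages is given here as a description, with no test. The shared direction of the 3 probes was thus known beforehand, while the differences in size between their changes were not part of that choice.

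The arrays measured total RNA of skeletal muscle from ICR mice, an outbred laboratory strain, at postnatal day 0 (D0, the newborn) and at postnatal day 65 (D65, the young adult). There were 4 arrays per age, no agent or allele is named in the labels, and the labels do not say which muscle was taken or whether the 4 samples per age were from 4 different mice. The spread between samples may therefore be technical. Ribosomal RNA had been removed and the cRNA was made with random primers along whole transcripts.

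Protein phosphatase 2A (PP2A) is a major serine/threonine phosphatase. It works as a complex of a catalytic subunit, a scaffold subunit and a regulatory B subunit, and the B subunit sets which substrates are dephosphorylated and where in the cell. Ppp2r3d encodes a member of the B'' family of regulatory subunits, a family whose members bind calcium through EF-hand motifs. Its product is also known as PR59 and has been linked to the pocket protein Rbl1 and to control of the cell cycle. In the gene table the symbol Ppp2r3a stands among the older names of Ppp2r3d although it now belongs to another B'' gene, so the probes were matched by transcript accession and not by symbol.

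RefSeq places Ppp2r3d on chromosome 9 as the last gene of that chromosome in the table, next to a stretch that the assembly does not resolve. The window around its start in GRCm38.p6 holds 100 unresolved bases out of 300, and only 10 of 32851 such windows hold any. The resolved bases between that gap and the first 30 bases of the gene model are shown because they hold all that this window resolves upstream of the annotated start as far as the gap. They lie at chr9:124476833-124476929 on the minus strand of GRCm38.p6, with the bases inside the gene in capitals. The array's grid follows another build, mm9, and no position on that build is given here.
Ppp2r3d start: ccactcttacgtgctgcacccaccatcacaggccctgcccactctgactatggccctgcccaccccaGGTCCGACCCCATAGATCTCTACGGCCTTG

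Of 28 PP2A genes looked for (catalytic, scaffold and regulatory subunits and their modulators), Ppp2r3d was the 1 with a probe named through RefSeq. The other subunits of the complex were not analysed here. None of 12 skeletal muscle markers and none of 10 markers of other cells of the tissue had such a probe, so the labelled tissue was not checked against its markers. Only 123 probes carry a RefSeq accession, of which 116 matched a gene symbol.

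Between 63.1% and 68.4% of all probes were well above background on the D0 arrays and between 52.3% and 60.7% on the D65 arrays. D0 replicate 4 stood apart from the other newborn arrays. Its Spearman correlations with them across probes were 0.886 to 0.913, against 0.942 to 0.973 among D0 replicates 1 to 3 and 0.953 to 0.980 among the D65 arrays. The differences between the ages and between the probes are given without D0 replicate 4 as well. A probe entered the comparison when every array of one age or the other showed it well above background, which left 34948 probes, called kept probes here. All 3 Ppp2r3d probes passed this filter at both ages: each of their 24 spots was well above background, none was saturated and none was marked as an outlier.

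Ppp2r3d was lower in adult than in newborn muscle on each of its 3 probes. Levels are given on the log2 scale relative to the array's own 75th percentile of processed signal, so that 0 means a signal equal to that percentile. The probe for the coding transcript NM_001163415 stood at -0.18, -0.60, 0.22 and -0.32 on D0 replicates 1 to 4 and at -1.56, -1.94, -0.96 and -1.37 on D65 replicates 1 to 4. The lowest newborn array lay 0.35 above the highest adult array, so the ages did not overlap. The mean level was -0.22 ± 0.34 at D0 and -1.46 ± 0.41 at D65 (SD, n = 4 arrays per age), a log2 difference of -1.23 (limma SE 0.27), or 2.35-fold lower in the adult.

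The probe for the other coding transcript, NM_011154, stood at -0.31, -0.75, -0.04 and -0.13 on D0 replicates 1 to 4 and at -1.39, -1.89, -1.07 and -1.65 on the D65 replicates. Again every adult array was below every newborn array, with a gap of 0.32. The mean moved from -0.31 ± 0.32 to -1.50 ± 0.35 (SD, n = 4), a log2 difference of -1.19 (SE 0.25), or 2.29-fold lower.

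The probe for the noncoding transcript NR_028110 stood at -0.17, -0.44, 0.22 and -0.48 on the D0 replicates and at -1.64, -1.76, -1.20 and -1.79 on the D65 replicates. It had the widest gap between the ages among the 3 probes, 0.72. Its mean moved from -0.22 ± 0.32 to -1.60 ± 0.27 (SD, n = 4), a log2 difference of -1.38 (SE 0.24), or 2.60-fold lower. In bulk tissue, fewer cells that hold the transcript and less transcript per cell cannot be told apart.

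**Figure D1:**
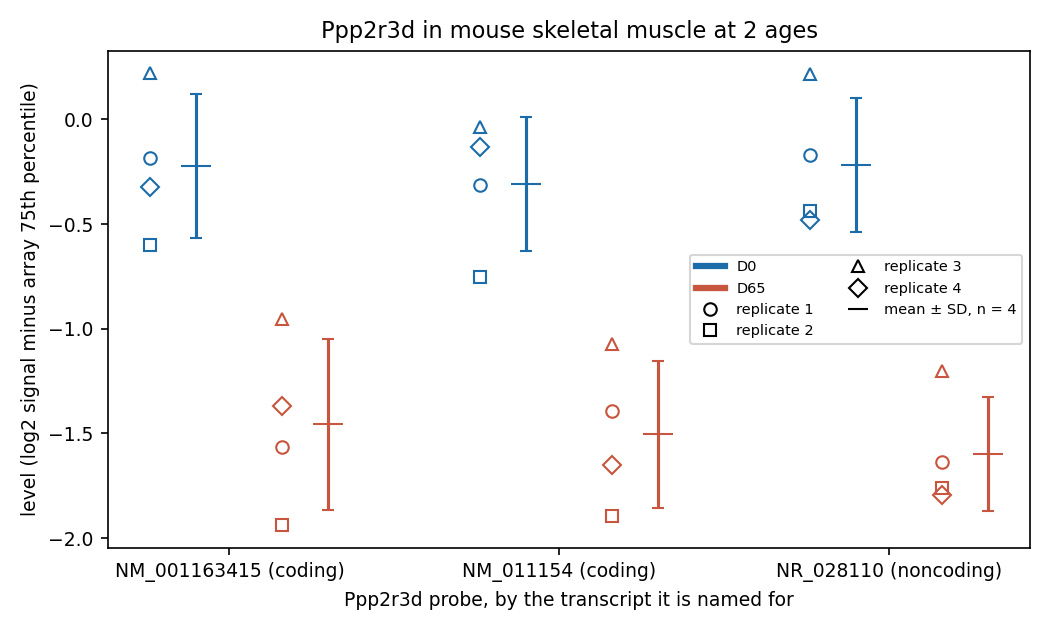
Level of each Ppp2r3d probe (log2 signal minus the array's 75th percentile) at D0 and D65, with 1 symbol per array and the mean ± SD (n = 4) beside it. On all 3 probes the D65 arrays lie below the D0 arrays, and replicate 3 is the highest array at both ages.

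Averaged over the 3 probes, the gene stood at -0.25 ± 0.30 at D0 and at -1.52 ± 0.33 at D65 (SD over 4 arrays), 2.41-fold lower in the adult. The closest newborn and adult arrays, D0 replicate 2 and D65 replicate 3, differed 1.39-fold. Without D0 replicate 4 the log2 differences were -1.27 for NM_001163415, -1.13 for NM_011154 and -1.47 for NR_028110.

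Over all 34948 kept probes, the median log2 difference was 0.06. All 3 Ppp2r3d probes had every adult array below every newborn array, as did 16.4% of the kept probes. All 3 also had a log2 difference of -1 or lower, which held for 14.4% of the kept probes, and 11.6% met both conditions. The limma rule, which adds a Benjamini-Hochberg adjusted p under 0.05 to the change of -1 or lower, called 12.6% of the kept probes, and the 3 Ppp2r3d probes were among them. As the gene was picked for this difference, nothing is read from these counts. The share of kept probes with a still lower difference was 11.2% for NM_001163415, 11.7% for NM_011154 and 9.69% for NR_028110. Among 71 coding genes named through RefSeq and kept, each taken by its brightest probe, 8 had a lower difference than Ppp2r3d.

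No difference between the changes of the coding and noncoding probes was detected, but 1 differing pair alone could not have passed the test. Signals of different probes cannot be set against each other, so the difference between a pair of probes was taken within each array and its mean compared between the ages with a two-sided exact permutation test over the 70 ways to divide the arrays, for 3 pairs. NR_028110 minus NM_011154 was 0.14, 0.32, 0.25 and -0.35 on the D0 replicates and -0.24, 0.13, -0.13 and -0.15 on the D65 replicates. D0 replicates 1 to 3 and D65 replicate 2 lay above 0 and the other arrays below it, with D0 replicate 4 the lowest of all 8, so the ages overlapped. The noncoding probe thus changed by -0.19 more than NM_011154 on the log2 scale, from 0.09 ± 0.30 to -0.10 ± 0.16 (SD, n = 4), with an exact permutation p of 0.343 and a Benjamini-Hochberg adjusted p of 0.557. Without D0 replicate 4 this difference was -0.33, with an exact permutation p of 0.0571 and an adjusted p of 0.171. With all 8 arrays but without the scanner software's correction across the array surface, it was -0.20 (exact permutation p 0.0857, adjusted 0.257).

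NR_028110 minus NM_001163415 averaged 0.0045 ± 0.13 over the newborn arrays and -0.14 ± 0.26 over the adult arrays (SD, n = 4), and the changes differed by -0.15 (exact permutation p 0.371, adjusted 0.557). Without D0 replicate 4 they differed by -0.20 (exact permutation p 0.229, adjusted 0.343). The coding pair, NM_011154 minus NM_001163415, went from -0.09 ± 0.20 to -0.05 ± 0.20, a difference of 0.04 (exact permutation p 0.829, adjusted 0.829), which was 0.13 without D0 replicate 4 (exact permutation p 0.343, adjusted 0.343). The smallest p that this design allows is 0.0286 before adjustment. After adjustment over the 3 pairs, 1 differing pair alone could not pass a threshold of 0.05. A p above the threshold does not show that the transcripts changed alike. The probes' sequences were not used here, so whether the probes read shared or separate stretches of the transcripts was not tested.

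Within an age, the 3 probes deviated to the same side on replicates 2 and 3 of each age, and to different sides on replicates 1 and 4. On D0 replicate 3 they deviated from their age means by 0.44, 0.27 and 0.43 for NM_001163415, NM_011154 and NR_028110, and on D65 replicate 3 by 0.50, 0.43 and 0.40. On D0 replicate 2 they deviated by -0.38, -0.45 and -0.22, and on D65 replicate 2 by -0.48, -0.39 and -0.16. Replicate 3 was thus the highest array of its age on all 3 probes, while the lowest array was replicate 2 on both coding probes and replicate 4 on the noncoding probe. On D0 replicate 4 their deviations were -0.10, 0.18 and -0.26, a range of 0.44 and the widest of the 8 arrays. On D65 replicate 4 they were 0.09, -0.15 and -0.20, and on D65 replicate 1 -0.11, 0.11 and -0.04. On D0 replicate 1 they were 0.04, -0.004 and 0.05, all near 0, with a range of 0.05. Which array has the widest range depends on the scanner software's surface correction: without it D65 replicate 4 was the widest, at 0.32. Without it the deviations on D65 replicate 1 were -0.25, -0.004 and -0.10, all to the same side.

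**Figure D2:**
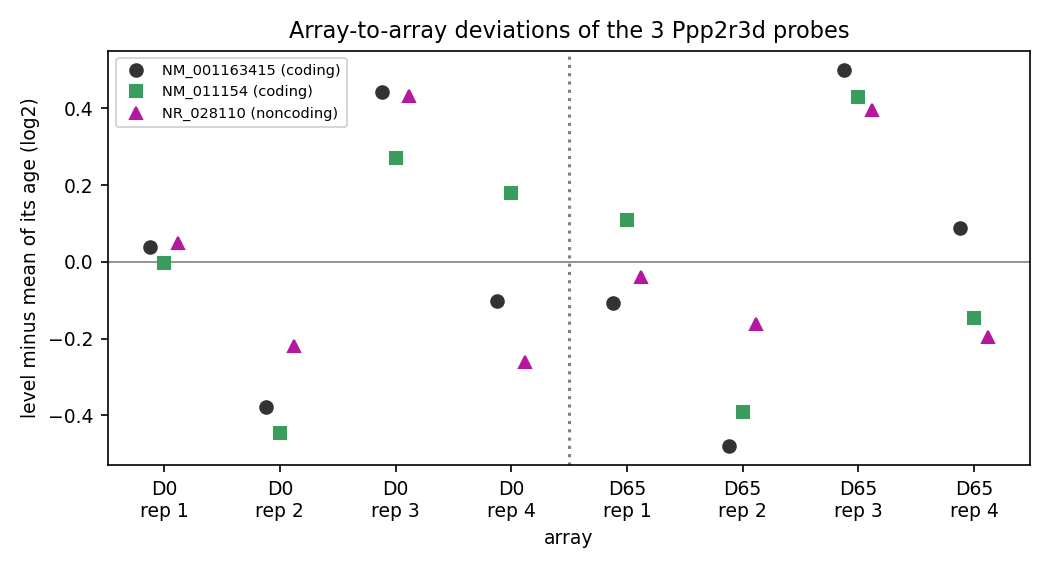
Deviation of each Ppp2r3d probe from its own mean at the same age (log2), for the 8 arrays. All 3 probes are above their mean on replicate 3 and below it on replicate 2 at both ages. They deviate to different sides on replicates 1 and 4, though on D0 replicate 1 all lie near their means. Their range on D0 replicate 4, from -0.26 to 0.18, is narrower without the surface correction.

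The array-to-array SD, pooled over the ages, was 0.38 for NM_001163415, 0.34 for NM_011154 and 0.30 for NR_028110, against a median of 0.39 over kept probes. The error that the scanner software assigned to a single spot was 10.1% to 10.4% of its signal for these probes at D0 and 11.1% to 14.7% at D65. The spots of the coding probes sit on rows 33 and 41 of the array and that of the noncoding probe on row 296. The software's smooth correction across the array surface moved the signals of these spots by between -0.14 and 0.26 on the log2 scale. On D0 replicates 2 and 3 and on D65 replicate 2 it left the signals of all 3 probes unchanged. On D0 replicate 4 it moved NM_011154 by 0.26, NM_001163415 by 0.04 and NR_028110 by -0.14. Without the correction the deviations of the 3 probes on that array spanned 0.21 in place of 0.44, and on D0 replicate 1 they spanned 0.25 in place of 0.05. Without it, the log2 differences between the ages were -1.37, -1.32 and -1.52 for NM_001163415, NM_011154 and NR_028110.

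The adult signals of Ppp2r3d were close to the upper range of the negative control spots. Negative controls are probes meant to match no transcript, and 20 of them were spotted many times on each array. Before scaling, the 3 probes gave processed signals of 219 to 242 on D0 replicate 1, 183 to 228 on replicate 2, 249 to 298 on replicate 3 and 97.9 to 125 on replicate 4. On D65 replicates 1 to 4 they gave 42.5 to 50.3, 31.5 to 35.6, 63.3 to 75.1 and 43.7 to 58.6. The unscaled signals of the ages did not overlap either, although D0 replicate 4 was the dimmest newborn array, with a 75th percentile of 136 against 256 to 309 on the other newborn arrays and 121 to 151 on the adult arrays.

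At D0 no negative control spot was as bright as any Ppp2r3d spot, over 1155 to 1169 such spots per array. At D65 the share of negative control spots at least as bright as NM_001163415 was 1.55% on replicate 1, 5.11% on replicate 2 and 1.11% on replicate 4, and none was on replicate 3. For NM_011154 the shares were 0.603%, 4.85% and 3.34% on replicates 1, 2 and 4, with none on replicate 3. For NR_028110 they were 2.24%, 4.17%, 0.433% and 4.79% on replicates 1 to 4.

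The 95th percentile of the negative control spots on D65 replicates 1 to 4 was 33.5, 31.9, 47.8 and 43.2. It was lowest on replicate 2 and highest on replicate 3, as were the Ppp2r3d signals of all 3 probes. The brightest negative control probe had spot medians of 40.1, 37.1, 51.5 and 48.6 on those arrays, and that median was above all 3 Ppp2r3d spots on replicate 2 and above those of NM_011154 and NR_028110 on replicate 4. The part of this background in the spread among adult arrays was not tested. The flag for spots well above background passed 8.19% to 13.4% of the negative control spots on the adult arrays and 14.9% to 17.4% on the newborn arrays.

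**Figure D3:**
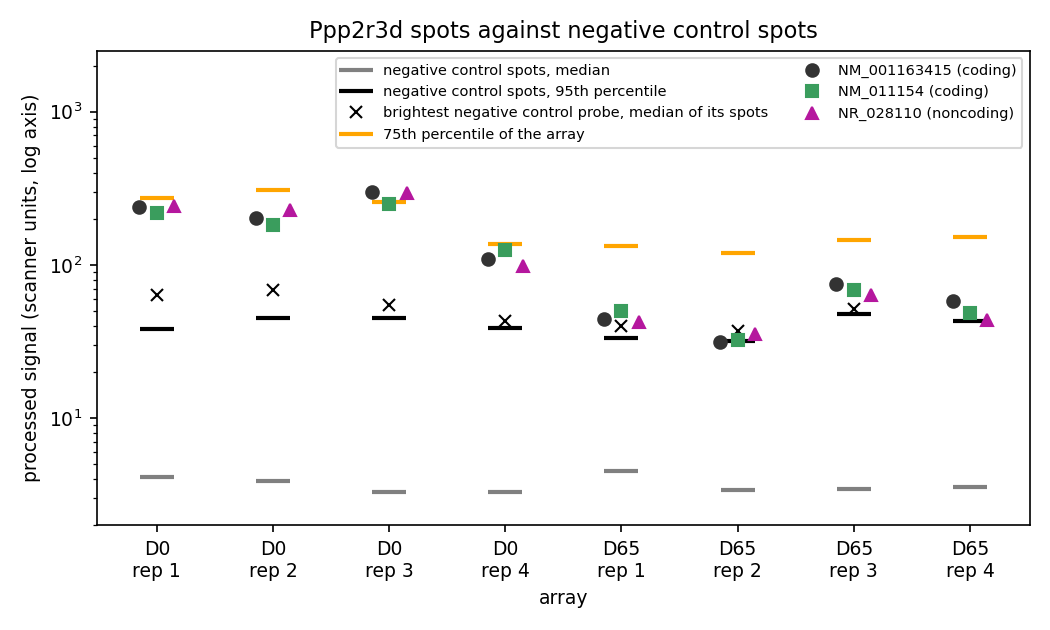
Processed signal (log axis) of the 3 Ppp2r3d spots on each array, with the median and the 95th percentile of the negative control spots, the brightest negative control probe and the 75th percentile of the array. The Ppp2r3d spots lie well above the negative controls on the D0 arrays, at 97.9 to 298, and near their 95th percentile on D65 replicate 2, at 31.5 to 35.6, and for NR_028110 on D65 replicate 4, at 43.7.

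The size of the difference depended on how background was removed. With normexp correction of the spot brightness and an offset of 50, the log2 differences shrank to -0.56, -0.59 and -0.70 for NM_001163415, NM_011154 and NR_028110 with the 75th percentile and to -0.69, -0.75 and -0.83 with quantile normalization, all short of the minimum change of 1. An offset added to every signal pulls dim values together by its construction. With normexp and no offset the differences were -0.89, -0.997 and -1.09, so those of the coding probes still fell short of 1. With the median of the negative control spots subtracted instead they were -1.48, -1.44 and -1.63. Under each of these settings every adult array still lay below every newborn array on all 3 probes.

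**Figure D4:**
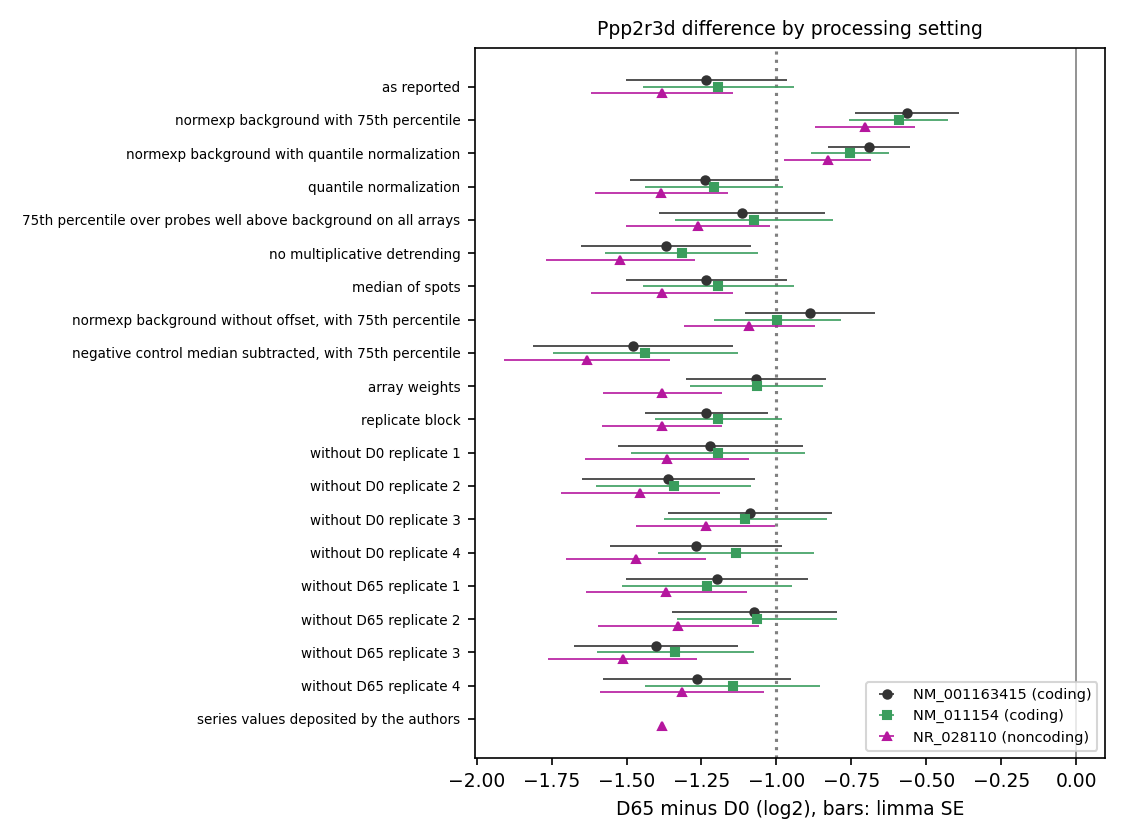
Difference D65 minus D0 (log2) of each Ppp2r3d probe as reported and under each other setting, with the limma SE as bars (none for the deposited series values). All values are below 0, from -1.63 to -0.56, and the values nearest 0 are those of normexp with an offset of 50; the dotted line marks -1.

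The authors' deposited table of normalized values lists 1 of the 3 probes, the noncoding NR_028110. Its deposited values were 159, 134, 206 and 125 on D0 replicates 1 to 4 and 57.5, 54.5, 74.9 and 50.6 on D65 replicates 1 to 4. Every adult value was below every newborn value, and the log2 difference was -1.38, the same as from the scanner signals. The table is on a linear scale that rises with the scanner signal, with correlations of 0.999 to 1.00 between logs across probes of each array, and its column medians were 153, 153, 154 and 181 at D0 and 179, 178, 171 and 173 at D65. How its columns were scaled against each other is unknown here.

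Of the genes with a matched symbol, 2 others had more than 1 kept probe. The probes of the long noncoding RNA 4930526I15Rik differed by -1.07 and -1.06 between the ages, and those of Gm3286 by 0.36 and 0.42. The 3 probes of Ppp2r3d spanned a range of 0.19, against 0.0051 and 0.06 for these genes, which have 2 probes each. 4930526I15Rik lies 3 genes before Ppp2r3d on chromosome 9 in the gene table, and Nlrp4g, of the NOD-like receptor family, lies 5 genes before it. Nlrp4g went the other way, with a log2 difference of 1.47 (SE 0.26) and no overlap of the ages, its newborn levels between 0.76 and 1.57 and its adult levels between 2.16 and 3.03. The choice of these neighbours was made with their values known.

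The genes with the profile most like Ppp2r3d were sought among the 72 other genes named and kept. Likeness was the root mean square distance over the 8 arrays between profiles centred on their own means, against the mean profile of the 3 Ppp2r3d probes. This distance takes in the difference between the ages, by which Ppp2r3d was chosen, so the search favours genes with a similar fall. Of 71 coding genes named and kept, 13 had every adult array below every newborn array, against 16.4% of all kept probes. Nothing is read from this count. Among genes measured well above background on every array, the nearest were Hprt, a purine salvage enzyme, at 0.31, Gusb, a lysosomal glucuronidase, at 0.31, Aida at 0.32 and Rpl13a, a large-subunit ribosomal protein, at 0.38. The brightest Ppp2r3d probe, which is part of the mean profile, lay at 0.09 from it. The 5 nearest by the rule also include Ldhal6b, a lactate dehydrogenase-like gene that was kept through the newborn arrays alone. No adult array showed it well above background, so its distance and its place in the order are not measured and no likeness is read from it. With each lower adult value replaced by the lowest level flagged well above background on its array, Ldhal6b was 1.37-fold lower in the adult. That level is the lowest flagged, so 1.37 is not a firm bound. The direction turned to a log2 difference of 0.10 after normexp with an offset and the 75th percentile.

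Gusb had the same highest newborn array as Ppp2r3d: it stood at 3.71 on D0 replicate 3, against 2.72, 2.69 and 3.12 on D0 replicates 1, 2 and 4. Its adult arrays did not share the order of Ppp2r3d. Gusb was highest on D65 replicate 1, at 2.31, and lowest on D65 replicate 4, at 1.90. Hprt instead had D0 replicate 2 as its highest newborn array, at 7.25, where both coding probes of Ppp2r3d were lowest. Hprt differed by -1.55 between the ages, with D0 values between 6.91 and 7.25 and D65 values between 5.39 and 5.69. Its pooled SD of 0.15 was smaller than that of each Ppp2r3d probe, but Hprt has 20 spots per array against 1 for each Ppp2r3d probe.

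**Figure D5:**
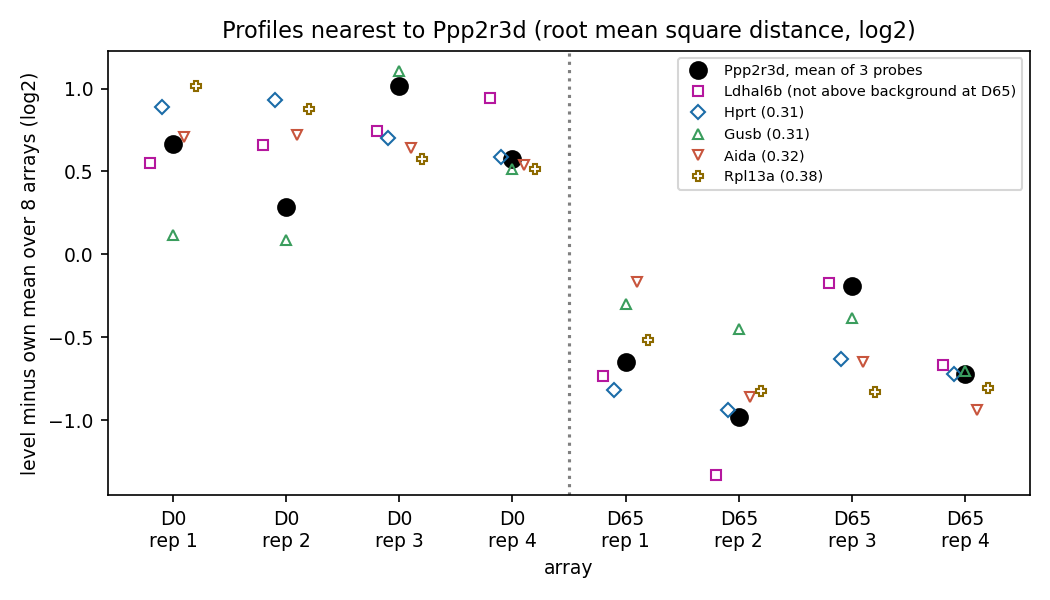
Level minus its own mean over the 8 arrays (log2) for the mean of the 3 Ppp2r3d probes and the 5 genes with the nearest profiles, with the distance in the legend where it was measured on every array. Ppp2r3d, Hprt, Gusb, Aida and Rpl13a are above 0 on the D0 arrays and below 0 on the D65 arrays. The search favours that pattern, as its distance takes in the difference between the ages. The D65 points of Ldhal6b are not above background. Ppp2r3d is highest on D0 replicate 3 and lowest on D65 replicate 2.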

How the data were processed

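Scanning used Agilent's Feature Extraction software, version 11.0.1.1 per the file headers. Its files give the deposited intensity of each spot after background subtraction and, where the software applied it, surface detrending. They also give the error of that intensity, the brightness of spot and local background, and flags of 0 or 1 (other values). The authors also deposited normalized intensity on a linear scale, by steps not given in the sources used here. Processed signals were taken as log2 minus each array's 75th percentile. Control spots, negative control probes and outlier spots were left out. The ages were compared over 34948 probes with limma 3.58.1 in R 4.3.3 (lmFit, eBayes, Benjamini-Hochberg). In a test on simulated data with the spread of 34880 of these probes, it called 40 of 100 probes changed by 1.5 and 71 of 100 changed by -2, with 2 false calls. Permutation tests and summaries used Python 3.11.15 with numpy 2.4.6 and pandas 2.3.3. RefSeq accessions were matched without versions to a gene table of GRCm38.p6. The start sequence is RefSeq's for that build. The named genes are Ppp2r3d, the 5 nearest profiles, genes with several kept probes and neighbouring genes on chromosome 9. The gene, lists and tests were chosen with earlier results of these data known. Alternatives changed the background correction, scaling, detrending, filter, weights and replicates. Normexp without an offset, subtraction of the negative control median and the deposited values were added after seeing the data. The number of arrays limits the precision.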

Additional observations from a re-analysis of the deposited data

Results flagged for a closer look

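In 28 groups of 4 arrays (the 3 Ppp2r3d probes, their pairwise differences, the 5 nearest profiles and the neighbouring genes, at each age), 1 array lay far from the others, and chance gives about 1 in 20 groups. This was Rpl13a, with a level of 4.10 on D65 replicate 1 and of 3.79 to 3.81 on the remaining adult arrays. None of the Ppp2r3d groups had such an array.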

How the results depend on the processing

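The difference of each Ppp2r3d probe stayed below 0 under all alternatives run, and moved by more than the replicate SD only after normexp with an offset of 50. It was then -0.56, -0.59 and -0.70 with the 75th percentile and -0.69, -0.75 and -0.83 with quantile normalization, for NM_001163415, NM_011154 and NR_028110. Leaving out 1 array gave -1.40 to -1.07, -1.34 to -1.06 and -1.51 to -1.24. No pair of probes passed the threshold in any alternative, with adjusted exact permutation p from 0.171 to 0.971. After adjustment 1 differing pair alone could not pass it, and with replicate number as a block no pair could. The difference of the coding pair turned sign after normexp, to -0.028 with the 75th percentile, -0.063 with quantile normalization and -0.11 without offset, and ranged from -0.032 to 0.13 when 1 array was left out; the cause was not tested. For the pairs with the noncoding probe, leaving out 1 array gave -0.25 to -0.05 and -0.33 to -0.11.

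Over all kept probes, 4395 were called lower and 3344 higher. After normexp with the 75th percentile 2831 were lower and 1644 higher, and with quantile normalization 2324 and 1917. With probes well above background on all 8 arrays, fewer were tested and 2832 were lower and 2926 higher. Scaling to such probes gave 3866 lower and 4200 higher, and subtracting the negative control median 5317 and 2345. Leaving out 1 array gave 3954 to 4920 lower and 2773 to 4323 higher. The labels do not say whether same-numbered arrays of the ages share more than a number, and this was not tested. In order of replicate number, the deviations of such arrays correlated at -0.12, 0.24, 0.28 and -0.13. With replicate number as a block 4393 were lower and 3357 higher, the Ppp2r3d differences were -1.23, -1.19 and -1.38, and the exact permutation p of the pairs were 0.875, 0.25 and 0.375, where 0.125 is the smallest possible. The single spot per probe and the closeness of adult signals to the negative controls limit the precision at D65.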
